A study of Homo sapiens with 6 samples.

Results

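The genes described here are 38 lysosomal genes: 10 cathepsins, 10 glycosidases, 5 sulfatases, 6 other hydrolases or activator proteins and 7 membrane or membrane-associated proteins. They were taken by symbol from a list of known lysosomal genes, which was drawn up with earlier results of these data known although its rule uses no measured value, and all 38 were found among the 17721 genes of the deposited table. RNA was measured in MDA-MB-231BR, a line that was derived from the triple-negative human breast cancer line MDA-MB-231 and homes to the brain. The tested cells carried a stable short hairpin RNA (shRNA) against ACSS2, the enzyme that makes acetyl-CoA from acetate in nucleus and cytosol (ACSS2 shRNA, 3 libraries). Their comparison cells carried a control shRNA (control shRNA, 3 libraries). Both groups were transduced with virus made in HEK-293T cells, selected with antibiotic and grown as monocultures in the same medium, so the controls share the transduction and the selection. The labels call the libraries of a group biological replicates. The sources used here do not give the number of hairpin sequences or the promoter that drives them.

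Lysosomes are acidic organelles in which soluble hydrolases break down proteins, glycans and lipids that arrive by endocytosis and autophagy. Most of these enzymes receive a phosphomannose tag in the Golgi apparatus and are carried to the lysosome by receptors, while heavily glycosylated membrane proteins line the organelle and a proton pump acidifies it. The transcription factors TFEB, TFE3 and MITF bind an E-box element near the starts of many lysosomal genes, with the core letters CACGTG, and breast cancer cells are known to secrete some cathepsins as well as to keep them in lysosomes.

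The letters in front of these genes were read first, as a property of the listed genes rather than of the libraries. Their part in the results that follow was not tested. RefSeq windows on GRCh38.p14 were matched by gene ID for 27 of the 38 genes and cover the 250 bases before the annotated start. CACGTG, which reads the same on both strands, stood in the window of 10 of the 27 genes (37.04%), against 11.21% of 10589 tested genes with a window of the same length. The longer form TCACGTG, searched on both strands and overlapping the first motif by construction, stood in 9 of the 27 (33.33%), against 6.49% of the tested genes. The 10 genes were the cathepsins CTSA, CTSD and CTSF, the glycosidases GAA and NEU1, the sulfatases GALNS and ARSB, and the membrane genes LAMP1, MCOLN1 and CD63. Some genes have windows for several annotated starts (38 for the 27 genes, 15573 for the 10589). A gene counted if any of its windows held the letters, and CD63 and ARSB also have windows without them. Below are the windows of 2 cathepsins and a sulfatase that rose with ACSS2 shRNA and hold the letters (CTSA, CTSD, GALNS), and of 2 membrane genes that hold them and were not called (LAMP1, MCOLN1). The window of CTSL, which had the largest rise and does not hold the letters, is also shown. Each is written 5′ to 3′ on the strand of the gene, ends at the base before the start, and has CACGTG in capitals.
CTSA: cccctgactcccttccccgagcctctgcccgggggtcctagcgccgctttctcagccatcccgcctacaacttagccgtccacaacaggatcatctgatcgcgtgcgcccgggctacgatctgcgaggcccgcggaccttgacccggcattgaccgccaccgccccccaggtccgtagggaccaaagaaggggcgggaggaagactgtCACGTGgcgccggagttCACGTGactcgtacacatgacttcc
CTSD: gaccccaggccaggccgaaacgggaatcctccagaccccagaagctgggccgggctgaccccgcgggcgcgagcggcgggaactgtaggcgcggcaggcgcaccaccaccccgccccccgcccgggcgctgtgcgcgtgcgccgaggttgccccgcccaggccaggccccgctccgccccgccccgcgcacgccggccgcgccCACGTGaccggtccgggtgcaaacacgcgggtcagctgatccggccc
GALNS: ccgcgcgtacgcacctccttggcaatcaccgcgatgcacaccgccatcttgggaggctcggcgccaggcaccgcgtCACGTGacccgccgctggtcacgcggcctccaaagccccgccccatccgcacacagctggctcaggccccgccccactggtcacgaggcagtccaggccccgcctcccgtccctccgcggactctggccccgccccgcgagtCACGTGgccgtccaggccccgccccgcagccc
LAMP1: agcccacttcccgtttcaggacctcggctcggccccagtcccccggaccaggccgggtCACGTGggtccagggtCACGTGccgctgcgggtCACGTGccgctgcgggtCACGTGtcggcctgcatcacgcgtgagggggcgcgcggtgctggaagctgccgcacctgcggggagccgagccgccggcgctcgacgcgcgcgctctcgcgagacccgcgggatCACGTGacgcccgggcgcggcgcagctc
MCOLN1: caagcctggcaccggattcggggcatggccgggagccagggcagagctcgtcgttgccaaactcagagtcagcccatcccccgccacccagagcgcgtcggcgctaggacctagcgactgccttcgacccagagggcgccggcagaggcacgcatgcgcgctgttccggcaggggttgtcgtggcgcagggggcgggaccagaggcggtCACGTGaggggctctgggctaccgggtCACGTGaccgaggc
CTSL: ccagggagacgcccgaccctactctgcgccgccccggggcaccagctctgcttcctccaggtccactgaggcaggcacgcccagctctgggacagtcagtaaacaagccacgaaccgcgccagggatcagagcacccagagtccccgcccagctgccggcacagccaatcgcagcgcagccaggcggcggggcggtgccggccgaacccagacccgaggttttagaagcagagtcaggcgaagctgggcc

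The windows lie at chr20:45891085-45891334 for CTSA (plus strand), chr11:1763928-1764177 for CTSD (minus strand) and chr16:88856948-88857197 for GALNS (minus strand). Those of the other 3 lie at chr13:113296989-113297238 for LAMP1, chr19:7522374-7522623 for MCOLN1 and chr9:87725869-87726118 for CTSL, all on the plus strand. The windows follow RefSeq starts. Those of CTSL, CTSA and CTSD lie inside the genes as placed by GENCODE v29, and the bases before these GENCODE starts were not read. Counted from the first C of the motif, CTSA held it 42 and 25 bases before the start and CTSD 47 bases before it. LAMP1 held it 5 times, at 192, 176, 159, 142 and 28 bases. MCOLN1 held it at 41 and 14 bases, and GALNS at 174 and 32 bases. A match is a description of letters and not of binding. Counted by gene, the motif was present for 5 of 12 genes with a window that rose in the paired comparison given below (41.67%) and for 5 of the other 15 genes with a window (33.33%).

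ACSS2 itself was read in every library as a check of the labels. It had 11.1, 50.5 and 88.7 CPM (counts scaled to library size, here with TMM factors) in ACSS2 shRNA libraries 1 to 3, against 76.3, 71.2 and 164 CPM in control shRNA libraries 1 to 3. At each replicate number the ACSS2 shRNA library had the lower level, with log2 differences of -2.76, -0.49 and -0.88, but ACSS2 shRNA library 3 lay above control shRNA libraries 1 and 2, so the groups overlap. The log2 fold change was -1.05 (SE 0.64, adjusted p = 0.504, edgeR) without pairing and -1.31 (SE 0.30, adjusted p = 0.00757, edgeR) with the replicate number as a block. DESeq2 with the same block gave -1.38 and did not call it (adjusted p = 0.124). Every direction below therefore rests on libraries whose ACSS2 level differs in size between pairs. Total counts were 15048275 to 17520166 with ACSS2 shRNA and 16093086 to 18608124 with control shRNA. The listed features of MDA-MB-231 (VIM, CD44, EGFR, FN1, KRT18, AXL, CAV1) summed to 6734 to 8329 TPM (abundance per transcript length, made by the authors) with ACSS2 shRNA and 6911 to 7098 TPM with control shRNA, mostly from VIM. Among them, with the block in edgeR, FN1 was called higher (log2 fold change 0.87, adjusted p = 0.000539), and CD44 (-0.57, adjusted p = 0.00598) and CAV1 (-0.35, adjusted p = 0.0348) lower. The 7 luminal breast markers summed to 22.8 to 32.2 TPM with ACSS2 shRNA and 24.4 to 32.03 TPM with control shRNA, mostly from FOXA1 and with CDH1 at or near 0. With the block in edgeR, GATA3 (log2 fold change -0.95, adjusted p = 0.0102) and ERBB3 (-0.46, adjusted p = 0.0418) were called lower. ESR1, EPCAM and FOXA1 were not called. Ribosomal protein genes took 5.57% to 7.94% of the counts with ACSS2 shRNA and 7.97% to 9.03% with control shRNA, and the part of this difference in the results was not tested.

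More of the lysosomal genes were higher than lower with ACSS2 shRNA, but the calls depend on the pairing of libraries. All 38 genes passed the filter on low counts, along with 13003 genes in total. In the unpaired edgeR fit none of the 38 was called at an adjusted p under 0.05, in either direction, where 0.0231% of all tested genes were called higher and 0.0461% lower. At an unadjusted p under 0.05 the same fit gave 9 of the 38 genes higher and 1 lower, where 6.89% of all tested genes were higher and 7.11% lower, and the smallest adjusted p among the 38 was 0.118, for CTSL. With the replicate number as a block, edgeR called 16 of 38 higher (42.1%), where 12.7% of all tested genes were called higher, and 1 of 38 lower (2.63%), where 12.4% of all tested genes were called lower. The log2 fold changes of the 38 genes in both fits differed by at most 0.14, while the SE of the 17 called genes was 0.16 to 0.54 unpaired and 0.11 to 0.21 with the block. DESeq2 without the block called CTSB and CTSL higher, where 1.65% of genes were called higher. The authors' deposited table called the same 2 members higher at a q-value under 0.05, where 1.00% of its genes were called higher. In bulk RNA, fewer cells of a kind and less RNA per cell cannot be told apart.

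The median log2 fold change of the 38 genes was 0.30 unpaired and 0.31 with the block, against 0.02 for all tested genes in either fit. Of the 38, 29 had a positive and 9 a negative value. The medians within replicate numbers 1, 2 and 3 were 0.33, 0.36 and 0.30. A gene was higher with ACSS2 shRNA at every replicate number in 24 of 38 cases (63.2%), where 30.5% of all tested genes were. It was lower at every replicate number in 6 cases, where 27.3% of all tested genes were. Without regard to pairing, every ACSS2 shRNA library lay above every control shRNA library for 11 of the 38 genes (28.9%), where 10.7% of all tested genes did. The reverse held for GM2A and SGSH, where 9.63% of all tested genes did. Among the 16 genes called higher with the block, the groups did not overlap for 9 and overlapped for 7. With the libraries of replicate number 2 left out, the block called 6 of the 38 higher (CTSA, CTSB, CTSD, CTSL, GALNS and SCARB2) and GM2A lower, and 5.08% of all genes were higher. On the authors' TPM with limma and the block, 21 of the 38 were higher, but there the median of all genes was itself 0.11 and all calls split into 2302 higher and 1071 lower, against 1657 higher and 1608 lower in edgeR with the block.

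**Figure D1:**
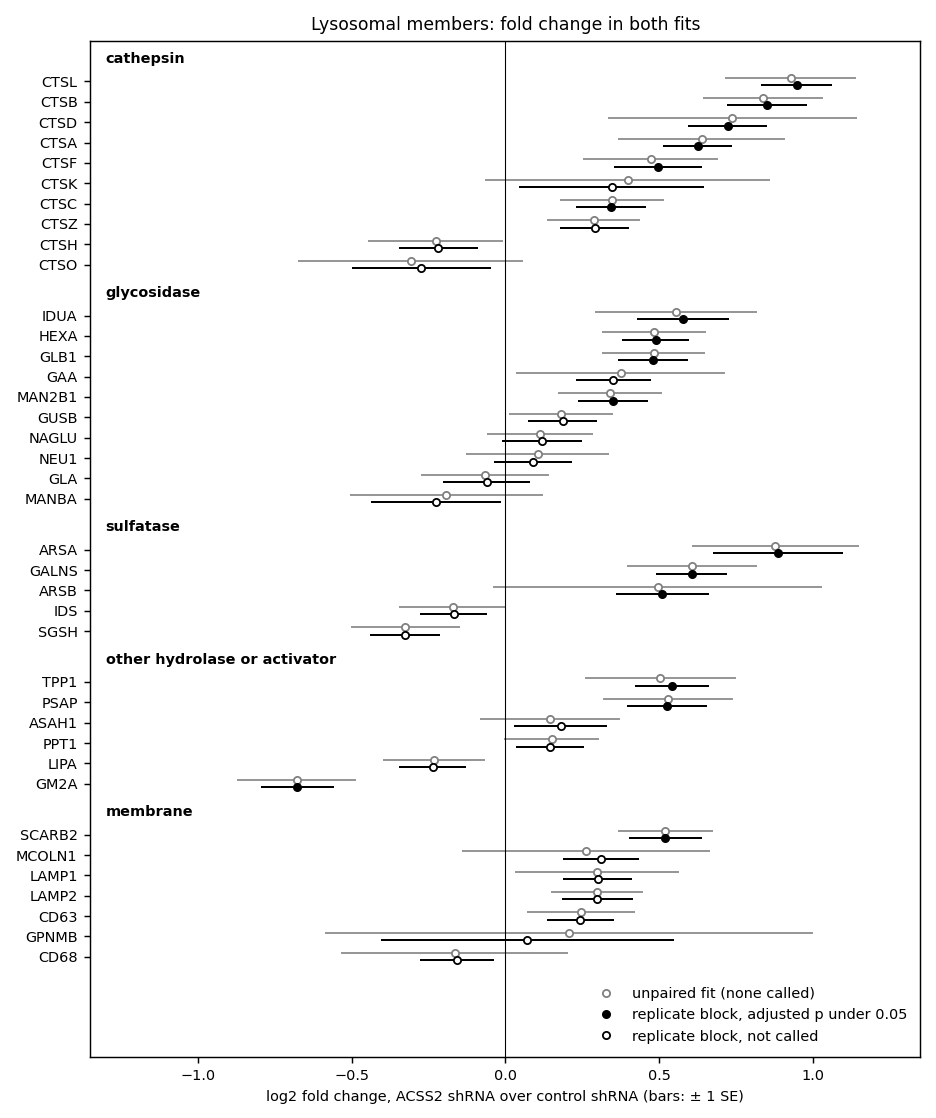
Log2 fold change of ACSS2 shRNA over control shRNA (x axis) for each of the 38 genes by class, in edgeR. Grey points are the unpaired fit, in which none was called, black points are the fit with the replicate block (filled where the adjusted p is under 0.05), and bars are ± 1 SE; 16 filled points lie to the right of 0 and 1, GM2A, to the left.

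The largest rise was in a cathepsin. The cathepsins are proteases that cut proteins inside the lysosome. With the block 6 of 10 were called higher (CTSA, CTSB, CTSC, CTSD, CTSF and CTSL), where 12.7% of all tested genes were. None was called lower, where 12.4% of all tested genes were, and 4 were not called. The median log2 fold change of the class was 0.42 with the block. CTSL, a cysteine endopeptidase (chr9:87725519-87731393, plus strand, GENCODE v29 on GRCh38), had 101, 130.5 and 106 CPM in ACSS2 shRNA libraries 1 to 3, against 45.7, 74.7 and 56.8 CPM in control shRNA libraries 1 to 3. Every ACSS2 shRNA library lay above every control shRNA library. CTSL had a log2 fold change of 0.95 with the block (SE 0.11, adjusted p = 0.000190, edgeR), a 1.93-fold rise, and 0.93 unpaired (SE 0.21, adjusted p = 0.118).

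CTSB, a cysteine protease that also removes dipeptides (chr8:11842524-11869448, minus strand), had 821, 658 and 785 CPM with ACSS2 shRNA, against 399, 353 and 514 CPM with control shRNA. Its groups did not overlap, and the lowest ACSS2 shRNA library was above the highest control shRNA library. The log2 fold change was 0.85 with the block (SE 0.13, adjusted p = 0.000704, edgeR), 1.80-fold, and 0.84 unpaired (SE 0.19, adjusted p = 0.119). In the authors' deposited table CTSL had a log2 fold change of 0.91 (q = 0.0115) and CTSB one of 0.81 (q = 0.0172).

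CTSD, the main aspartic protease of the lysosome, had 622.5, 335 and 246 CPM with ACSS2 shRNA, against 369, 172 and 179.9 CPM with control shRNA. Library 1 was the highest of its group on both sides, and control shRNA library 1 lay above ACSS2 shRNA libraries 2 and 3, so the groups overlap although each pair was higher. CTSD had a log2 fold change of 0.72 with the block (SE 0.13, adjusted p = 0.00175, edgeR) and 0.74 unpaired (SE 0.40, adjusted p = 0.457). CTSA, a carboxypeptidase that also protects the enzymes encoded by GLB1 and NEU1 in a complex, had 387, 249 and 216 CPM with ACSS2 shRNA, against 239, 158 and 150.3 CPM with control shRNA. ACSS2 shRNA library 3 lay below control shRNA library 1, so these groups overlap too. CTSA had a log2 fold change of 0.63 with the block (SE 0.11, adjusted p = 0.00199, edgeR) and 0.64 unpaired (adjusted p = 0.352).

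CTSF rose by a log2 fold change of 0.50 (adjusted p = 0.0242) and CTSC, which activates granule proteases of immune cells, by 0.34 (adjusted p = 0.0415), both in edgeR with the block. The call for CTSC was lost in 6 of 9 settings that used the block. CTSZ, a carboxypeptidase, had groups that did not overlap and a value of 0.29 that missed the threshold (adjusted p = 0.0789). CTSH had -0.22 (adjusted p = 0.232), CTSK 0.35 (adjusted p = 0.427) and CTSO -0.27 (adjusted p = 0.402). CTSK, the collagen-degrading protease of osteoclasts, rested on 20, 53 and 38 counts with ACSS2 shRNA and 22, 31 and 33 counts with control shRNA, so its value is imprecise.

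**Figure D2:**
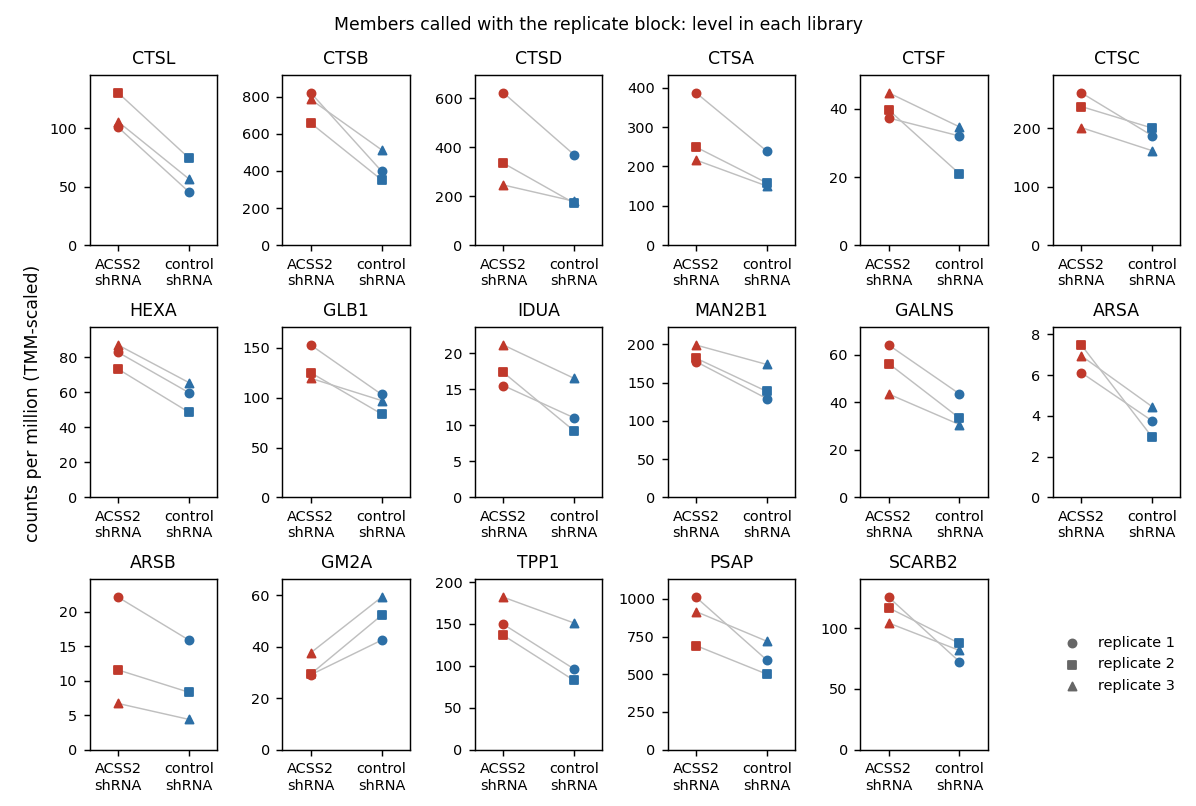
Level in each library (y axis, CPM scaled with TMM factors, from 0) of the 17 genes called in edgeR with the replicate block. ACSS2 shRNA is at the left and control shRNA at the right of each panel, marker shapes are replicate numbers and grey lines join libraries that share a number; 16 genes have a higher ACSS2 shRNA point in every pair and GM2A a lower one.

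Of the glycosidases, which remove sugars from glycoproteins, glycolipids and glycosaminoglycans, 4 of 10 were called higher with the block (GLB1, HEXA, IDUA and MAN2B1), none lower, and 6 were not called. Among all tested genes 12.7% were called higher and 12.4% lower in that fit. The class median was 0.27. HEXA, the alpha subunit of the hexosaminidase that cuts the ganglioside GM2, had 82.7, 73.2 and 86.9 CPM with ACSS2 shRNA, against 59.7, 48.6 and 65.5 CPM with control shRNA. No library of one group lay within the other. The log2 fold change was 0.49 with the block (SE 0.11, adjusted p = 0.00679, edgeR) and 0.48 unpaired (adjusted p = 0.264). GLB1, the beta-galactosidase, had 153, 125 and 119 CPM with ACSS2 shRNA, against 103, 83.7 and 97.1 CPM with control shRNA. These groups were apart as well, with a log2 fold change of 0.48 (SE 0.11, adjusted p = 0.00851, edgeR with the block).

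IDUA, which removes iduronic acid from heparan and dermatan sulfate, had 15.5, 17.4 and 21.2 CPM with ACSS2 shRNA, against 11.1, 9.24 and 16.5 CPM with control shRNA. Control shRNA library 3 lay above ACSS2 shRNA library 1. IDUA had a log2 fold change of 0.58 (SE 0.15, adjusted p = 0.0145, edgeR with the block). MAN2B1, the lysosomal alpha-mannosidase, had 177, 182 and 199 CPM with ACSS2 shRNA, against 129, 138.5 and 174 CPM with control shRNA. The groups did not overlap, with the closest approach between ACSS2 shRNA library 1 and control shRNA library 3, and the log2 fold change was 0.35 (SE 0.11, adjusted p = 0.0388, edgeR with the block). That call was lost in 5 of 9 settings with the block.

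GAA, which releases glucose from glycogen, had the highest TPM of the class. Its levels were 181, 267 and 410.1 CPM with ACSS2 shRNA and 168, 183 and 311 CPM with control shRNA. The spread between replicate numbers was wider than the difference within any of them, and the log2 fold change of 0.35 missed the threshold with the block (SE 0.12, adjusted p = 0.0518, edgeR). The other 5 genes were GUSB at 0.19, NAGLU at 0.12, NEU1 at 0.09, GLA at -0.06 and MANBA at -0.23 in log2 fold change, with adjusted p between 0.250 and 0.790 in edgeR with the block. GLA, the alpha-galactosidase, had the opposite sign, 0.05, when limma was run on TPM.

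The 5 sulfatases split by direction: GALNS, ARSA and ARSB were called higher in edgeR with the block, and SGSH and IDS had negative values that were not called in that fit. Over all tested genes, 12.7% were called higher and 12.4% lower with the block. The class median was 0.51. GALNS, which takes sulfate from keratan and chondroitin sulfate, had 64.2, 56.4 and 43.6 CPM with ACSS2 shRNA, against 43.6, 33.4 and 30.7 CPM with control shRNA. The groups meet at 43.6 CPM, where the lowest ACSS2 shRNA library lay marginally below the highest control shRNA library. edgeR gave a log2 fold change of 0.61 with the block (SE 0.12, adjusted p = 0.00275, edgeR) and also 0.61 unpaired (SE 0.21, adjusted p = 0.263). ARSA, the sulfatase of the myelin lipid sulfatide, was at 6.12, 7.48 and 6.95 CPM with ACSS2 shRNA, against 3.76, 2.97 and 4.46 CPM with control shRNA. The groups were apart, and the log2 fold change was 0.89 (SE 0.21, adjusted p = 0.00933, edgeR with the block). This rests on 110 to 119 counts per ACSS2 shRNA library and 52 to 69 counts per control shRNA library.

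ARSB, which takes sulfate from dermatan and chondroitin sulfate, showed the widest spread between replicate numbers of the class. It had 22.1, 11.6 and 6.70 CPM with ACSS2 shRNA, against 15.9, 8.33 and 4.39 CPM with control shRNA. The groups overlap, yet each pair was higher, giving 0.51 with the block (SE 0.15, adjusted p = 0.0258, edgeR) and 0.50 unpaired (SE 0.54, adjusted p = 0.726). The ARSB call was lost in 5 of 9 settings with the block, and the unpaired value was -0.0808 without ACSS2 shRNA library 1. SGSH, the sulfamidase of heparan sulfate, had 40.5, 49.6 and 53.1 CPM with ACSS2 shRNA, against 55.0, 55.6 and 69.0 CPM with control shRNA. Every ACSS2 shRNA library was below every control shRNA library, and the log2 fold change of -0.33 missed the threshold (SE 0.11, adjusted p = 0.0521, edgeR with the block). SGSH was called lower in 2 of 9 settings with the block. These were edgeR with DESeq2 size factors (-0.35, adjusted p = 0.0446) and edgeR with no filter. IDS, the iduronate sulfatase with the highest TPM of the class, had 131.5, 131 and 160.3 CPM with ACSS2 shRNA, against 156, 137 and 183 CPM with control shRNA. The groups overlap, and its log2 fold change was -0.17 (adjusted p = 0.286).

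Among the other hydrolases and activators, TPP1 and PSAP were called higher with the block, GM2A was called lower, and 3 were not called. These are 33.3% higher and 16.7% lower, where 12.7% of all tested genes were higher and 12.4% lower. GM2A, the activator that presents the ganglioside GM2 to hexosaminidase A (chr5:151212150-151270440, plus strand), had 29.1, 29.3 and 37.6 CPM with ACSS2 shRNA, against 42.5, 52.1 and 59.2 CPM with control shRNA. All ACSS2 shRNA libraries lay below all control shRNA libraries. The log2 fold change was -0.68 with the block (SE 0.12, adjusted p = 0.00158, edgeR) and -0.68 unpaired (SE 0.19, adjusted p = 0.192). GM2A thus had the opposite sign to HEXA, the enzyme subunit it serves.

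TPP1, a peptidase that removes tripeptides, had 149.6, 136 and 182 CPM with ACSS2 shRNA, against 96.2, 82.6 and 151 CPM with control shRNA. Control shRNA library 3 lay within the ACSS2 shRNA range. TPP1 had a log2 fold change of 0.54 (SE 0.12, adjusted p = 0.00679, edgeR with the block). PSAP, the precursor of the saposins that help enzymes reach sphingolipids, had 1011, 690.1 and 916 CPM with ACSS2 shRNA, against 594, 501 and 719 CPM with control shRNA. ACSS2 shRNA library 2 fell just below control shRNA library 3, and the log2 fold change was 0.53 (SE 0.13, adjusted p = 0.0115, edgeR with the block). LIPA, the acid lipase of cholesteryl esters, had 55.0, 45.7 and 58.9 CPM with ACSS2 shRNA, against 63.2, 56.6 and 67.7 CPM with control shRNA. It was lower in each pair, the groups overlapped, and its value of -0.24 was not called (adjusted p = 0.131). ASAH1, the acid ceramidase, had 0.18 and PPT1, which removes palmitate from proteins, 0.15, and neither was called.

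Of the 7 membrane genes only SCARB2 was called in edgeR with the block, as higher (14.3%, close to the 12.7% of all tested genes). With the block in limma on TPM, LAMP1, CD63 and MCOLN1 were also called higher. In those fits 17.7% (log2(TPM + 1)) and 17.4% (log2(TPM + 0.1)) of all tested genes were called higher. LAMP1 and CD63 were each called in 2 of 9 settings with the block, and MCOLN1 in 3. SCARB2 encodes LIMP-2, the receptor that carries glucocerebrosidase to the lysosome, and had 125, 117 and 104 CPM with ACSS2 shRNA, against 72.3, 87.4 and 81.6 CPM with control shRNA. The groups did not overlap. SCARB2 had a log2 fold change of 0.52 with the block (SE 0.12, adjusted p = 0.00773, edgeR) and 0.52 unpaired (SE 0.16, adjusted p = 0.201). LAMP1, a major glycoprotein of the lysosomal membrane, had 428, 291 and 256 CPM with ACSS2 shRNA, against 348, 245 and 200.1 CPM with control shRNA. It was higher in each pair while the groups overlapped, and its log2 fold change of 0.30 was not called (SE 0.11, adjusted p = 0.0689, edgeR with the block).

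LAMP2, its relative with a part in autophagy, had 55.3, 53.4 and 50.8 CPM with ACSS2 shRNA, against 39.9, 46.1 and 43.9 CPM with control shRNA. Its groups were apart at a log2 fold change of 0.30 that was also not called (adjusted p = 0.0755). MCOLN1, a lysosomal calcium channel, had 59.2, 33.1 and 28.97 CPM with ACSS2 shRNA, against 54.6, 25.5 and 20.99 CPM with control shRNA. The pairs were all higher but the groups overlapped, with a log2 fold change of 0.31 (adjusted p = 0.0804, edgeR with the block). CD63, a tetraspanin of late endosomes and exosomes, had 0.24 (adjusted p = 0.117).

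CD68, a heavily glycosylated protein used as a macrophage marker, was the membrane gene with the highest TPM. It had 379.5, 499.9 and 839 CPM with ACSS2 shRNA, against 405, 576 and 945 CPM with control shRNA. Library 3 was the highest on both sides, and the log2 fold change of -0.16 was not called (adjusted p = 0.359, edgeR with the block). The 9 listed macrophage markers summed to 4.10 to 8.88 TPM with ACSS2 shRNA and 3.21 to 4.91 TPM with control shRNA. PTPRC, CSF1R, AIF1 and CD163 were at or near 0, and CD14 gave 2.95 to 6.86 TPM of the sum with ACSS2 shRNA and 0.89 to 3.64 TPM with control shRNA. CD14 was called higher in the same fit as the lysosomal genes (log2 fold change 1.30, adjusted p = 0.00711, edgeR with the block). The 3 osteoclast markers found in the table summed to 4.46 to 11.3 TPM with ACSS2 shRNA and 2.50 to 4.41 TPM with control shRNA, almost all from ACP5, itself a lysosomal phosphatase, which was also called higher (0.78, adjusted p = 0.0317, edgeR with the block). The part of these markers in the results was not tested. GPNMB, a glycoprotein of melanosomes and lysosomes, was close to the detection limit, with 38, 4 and 8 counts with ACSS2 shRNA and 22, 16 and 5 counts with control shRNA. The 4 melanocyte markers found in the table summed to 1.21 to 2.45 TPM with ACSS2 shRNA and 1.42 to 4.25 TPM with control shRNA.

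On the per-length TPM scale the 38 genes together made up 4866, 4102 and 4289 TPM in ACSS2 shRNA libraries 1 to 3, against 3155, 3099.8 and 3569 TPM in control shRNA libraries 1 to 3. Each ACSS2 shRNA library lay above each control shRNA library, with shares of 0.410% to 0.487% of all TPM with ACSS2 shRNA and 0.310% to 0.357% with control shRNA. The mean summed level was 4419 ± 398 TPM with ACSS2 shRNA and 3274 ± 256 TPM with control shRNA (SD, n = 3 each). The cathepsins summed to 1533 ± 320.0 TPM with ACSS2 shRNA and 930.0 ± 87.4 TPM with control shRNA, and their groups were apart. The glycosidases summed to 581 ± 27.6 TPM with ACSS2 shRNA and 433 ± 47.3 TPM with control shRNA, and these groups were apart. The other hydrolases and activators summed to 907 ± 131 TPM with ACSS2 shRNA and 652 ± 71.2 TPM with control shRNA, also apart. The sulfatases, at 144 ± 10.6 TPM with ACSS2 shRNA and 132 ± 5.66 TPM with control shRNA, overlapped between the groups. So did the membrane genes, at 1254 ± 140.1 TPM with ACSS2 shRNA and 1127 ± 203 TPM with control shRNA. TPM is a share of the library, so a rise of other genes would lower these sums and a fall of other genes would raise them. In limma on log2(TPM + 1) the median log2 fold change of all tested genes was itself 0.11. The median of the 38 genes was 0.40 there, against 0.31 in edgeR with the block.

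**Figure D3:**
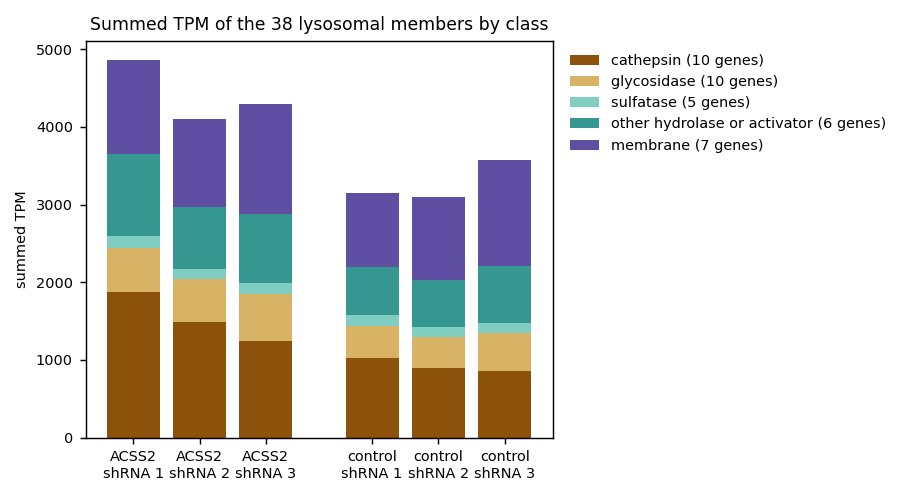
Summed TPM (y axis) of the 38 genes in each library, stacked by class, ACSS2 shRNA at the left. The ACSS2 shRNA bars reach 4102 to 4866 TPM and the control shRNA bars 3099.8 to 3569 TPM, and the cathepsin block is larger in every ACSS2 shRNA library than in any control shRNA library.

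CD68 and PSAP had the highest mean TPM of the 38 genes in both groups. CD68 averaged 587 ± 209 TPM with ACSS2 shRNA and 618 ± 256 TPM with control shRNA, and PSAP 572 ± 109 TPM with ACSS2 shRNA and 367 ± 54.5 TPM with control shRNA (SD, n = 3 each). In control shRNA cells they were followed by CD63 at 251 ± 22.8 TPM, CTSD at 199 ± 86.9 TPM, CTSB at 193 ± 32.6 TPM and LAMP1 at 184 ± 49.7 TPM. Each pair of neighbours in the order from CD63 to LAMP1 differed by less than the larger of its 2 SDs, so the order of neighbours is not resolved. CD63 lay above CTSB and above LAMP1 in each control shRNA library. In ACSS2 shRNA cells CTSB, at 374 ± 41.9 TPM, and CTSD, at 366 ± 192 TPM, came before CD63, at 318 ± 39.5 TPM, again within their spread. CTSL averaged 136 ± 23.4 TPM with ACSS2 shRNA and 66.4 ± 19.7 TPM with control shRNA. At the low end, averages were under 5 TPM in control shRNA cells for MANBA, ARSB, CTSO, ARSA, CTSK and GPNMB, the last at 0.670 ± 0.731 TPM with ACSS2 shRNA and 0.543 ± 0.302 TPM with control shRNA. The 16 genes called higher with the block had a median of 74.6 TPM over all libraries, and the other 22 genes one of 33.9 TPM. A test can find a given fold more easily in a gene with more counts, and the part of the level in these calls was not tested.

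Replicate numbers also separated the libraries. In the fit with the block, edgeR called a difference between replicate numbers for 14 of the 38 genes (36.8%), where 38.7% of all tested genes were called, so this share is close to the background. Of these 14, 7 were highest in library 1 of both groups (CTSA, CTSD, GALNS, ARSB, LAMP1, MCOLN1 and GPNMB). A further 5 were highest in library 3 of both groups (CTSH, GAA, IDUA, TPP1 and CD68), CTSL was highest in library 2 of both, and NEU1 differed in its highest library between the groups. For ARSB the highest library was 3.30 times the lowest with ACSS2 shRNA and 3.62 times with control shRNA, while for CD68 these ratios were 2.21 with ACSS2 shRNA and 2.33 with control shRNA. For MCOLN1 they were 2.04 with ACSS2 shRNA and 2.60 with control shRNA. For CTSD they were 2.53 with ACSS2 shRNA and 2.15 with control shRNA. The labels give the replicate number in the titles and as a batch tag, and do not say whether it stands for cultures, hairpin sequences or rounds of processing.

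**Figure D4:**
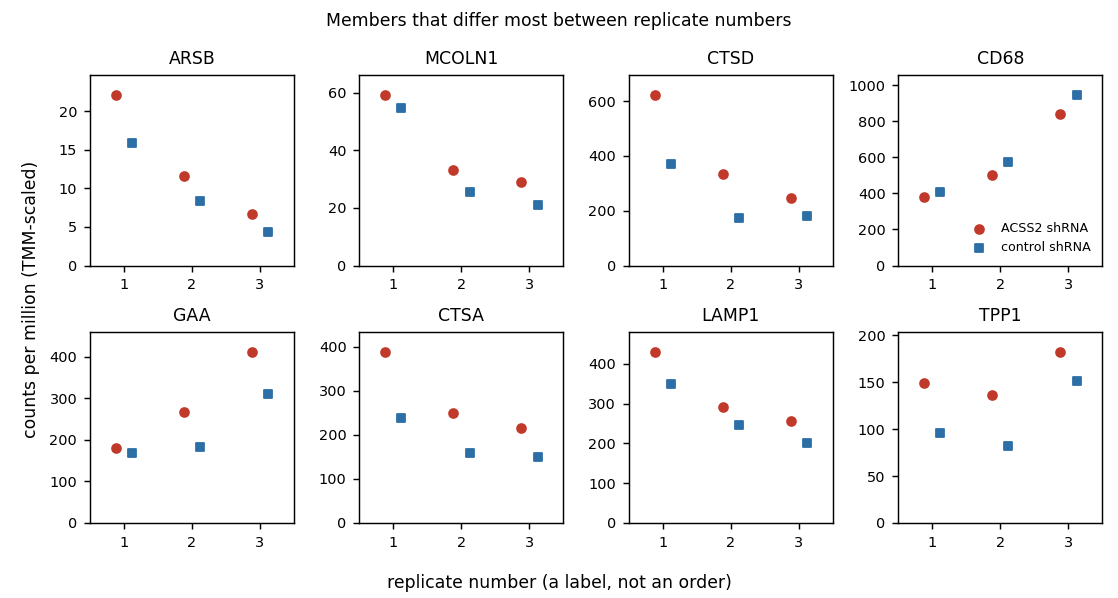
Level (y axis, CPM scaled with TMM factors, from 0) of 8 lysosomal genes by replicate number (x axis, a label without order), ACSS2 shRNA as red circles and control shRNA as blue squares. In both groups ARSB, MCOLN1, CTSD, CTSA and LAMP1 are highest at number 1 and CD68, GAA and TPP1 at number 3, while the gap between the groups keeps its sign within each panel.

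The wider lysosomal system was counted in 5 further lists of 78 genes, all of which were tested and none of which was called in the unpaired edgeR fit. With the block, 19 of the 78 were higher (24.4%) and 10 lower (12.8%), where 12.7% of all tested genes were higher and 12.4% lower. Of 17 subunits and accessory proteins of the V-ATPase, the pump that acidifies the lysosome, 4 were higher and 3 lower. TCIRG1, a membrane subunit, had 141 ± 30.2 CPM with ACSS2 shRNA and 95.4 ± 22.2 CPM with control shRNA (log2 fold change 0.56, adjusted p = 0.00547), and ATP6AP1 had 0.52 (adjusted p = 0.00443). ATP6V0B, another membrane subunit, fell, with 39.5 ± 6.50 CPM with ACSS2 shRNA and 72.4 ± 29.02 CPM with control shRNA (SD, n = 3 each; log2 fold change -0.82, adjusted p = 0.00178, edgeR with the block).

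Of 15 genes for the MiT/TFE factors and the nutrient-sensing proteins on the lysosomal surface, 1 was higher and 1 lower, at 6.67% each below the shares of all tested genes. FNIP2, a partner of folliculin, had a log2 fold change of 0.51 (adjusted p = 0.0135) and MITF one of -0.49 (adjusted p = 0.0209), while RRAGC, a Rag GTPase, had 0.40 (adjusted p = 0.0506). TFEB, at -0.05 (adjusted p = 0.892), and TFE3, at 0.24 (adjusted p = 0.133), were not called. Of 13 genes for sorting and activation of lysosomal enzymes, 3 were higher (23.1%) and 1 lower (7.69%), against 12.7% and 12.4% of all tested genes. M6PR, a mannose phosphate receptor, had 0.41 (adjusted p = 0.0155) and GNPTG, a subunit of the enzyme that starts the mannose tag, 0.58 (adjusted p = 0.00551). CLN6, a membrane protein of the endoplasmic reticulum, had -0.74 (adjusted p = 0.00407) and ran from -1.43 to 0.0075 over the fits with a library or a pair left out.

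Other lysosomal hydrolases went both ways, with 5 of 19 higher (26.3%) and 4 lower (21.1%), against 12.7% and 12.4% of all tested genes. ACP2, an acid phosphatase, had a log2 fold change of 0.93 (adjusted p = 0.000404), and DNASE2, the acid DNase, had one of -0.84 (adjusted p = 0.000635). Of 14 other membrane and transport proteins, 6 were higher (42.9%) and 1 lower (7.14%). CTNS, the cystine exporter, had 0.88 (adjusted p = 0.000708), NPC1, which moves cholesterol out of the lysosome, 0.62 (adjusted p = 0.00221), and CD164, a sialomucin, 0.58 (adjusted p = 0.00723), all log2 fold changes in edgeR with the block.

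Some counts may hold reads of neighbours, since exons overlap and the sources used here give neither the annotation nor the strand setting of the counting. A strand setting could separate only neighbours on the opposite strand. In GENCODE v29, 81.73% of the exonic bases of CD68 are shared with AC016876.2 and 41.71% of those of CTSD with AC068580.4, both on the same strand. PPT1 shares 23.37% with CAP1 and CTSA 17.73% with NEURL2, both on the opposite strand. IDS shares 16.46% with AC244197.3 on the same strand, IDUA 13.35% with SLC26A1 on the opposite strand, and MAN2B1 13.1% with AC010422.3 on the same strand. A share of exonic bases is not a share of reads, and it is not known whether these neighbours were among the counted genes. How the reads of these 7 genes were split was not tested.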

How the data were processed

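RNA of 6 libraries was sequenced on DNBSEQ after oligo(dT) enrichment, per the labels' protocols. HISAT, Bowtie2 and RSEM are named without versions, per the submitters' processing notes. The sources used here do not give the annotation behind the counts. The deposited table holds expected counts estimated by the authors, of which 10.47% to 13.01% per library were not whole; they were rounded. It also holds TPM computed by the authors, and the authors' deposited comparison with log2 fold changes, p-values and q-values from DESeq2; the p-values and FPKM were not used. Lines of spilled annotation text (565) were left out, 26 date-like symbols were restored from gene IDs, and 17479 IDs matched a reference table. Gene coordinates and exon overlaps come from GENCODE v29 on GRCh38, and promoter letters from RefSeq on GRCh38.p14.

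Groups were compared with the quasi-likelihood test of edgeR (version 4.0.16, under R 4.3.3) after TMM scaling and filterByExpr (minimum count 10, minimum total 15), over 13003 genes with Benjamini-Hochberg adjustment and a threshold of 0.05. SE is the absolute log2 fold change over the square root of F. The scripts were tested on simulated data. The labels' titles and batch tag give each group the numbers 1 to 3, without saying what a number stands for. Deviations from the group mean correlated by 0.72, 0.49 and 0.74 across genes between libraries of the same number. The highest value between different numbers was -0.01. Since the deviations of 3 libraries sum to 0 for each gene, positive values at the same number push those between different numbers down. The latter are thus no separate evidence of pairing. Because of the values at the same number, the replicate number was also used as a block, and both fits are given. The block values are stated throughout because they change most calls. Alternatives were DESeq2 1.42.0, its size factors, no filter, limma 3.58.1 on log2 TPM, and leaving libraries out. Adjusted p-values printed for the context lists are from edgeR with the block. Total counts, and the spread of 3 libraries a group, limit the precision; p-values cover the spread between these libraries of 1 cell line.

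The genes given with every library were, in each class, the 4 with the smallest p in the fit with the block and the one with the highest TPM, and in each context list the 3 with the smallest p, plus TFEB and TFE3. A result under this rule is not reported here. The members and lists were chosen with earlier results of these data known.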

Additional observations from a re-analysis of the deposited data

How the results depend on the processing

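Without the block, 9 genes were called in edgeR, none of them among the 38, and with the replicate block the count was 3265, of which 16 lysosomal genes were higher and 1 lower. With the replicate block and DESeq2 size factors it was 3117 (14 members higher, 2 lower). There 11% of all tested genes were higher and 1691 of 13003 lower. With the replicate block in DESeq2 it was 2578 (13 members higher, 1 lower). There 8.84% of all tested genes were higher and 1428 of 13003 lower. With the replicate block and no filter it was 3494 (14 members higher, 2 lower). There 9.47% of all tested genes were higher and 1895 of 16885 lower. Where 2 members were lower, they were GM2A and SGSH. With the replicate block in limma on log2(TPM + 1) it was 3373 (21 members higher, 1 lower), and on log2(TPM + 0.1) 3324 (20 members higher, 1 lower). Of all tested genes, 17.7% were higher and 1071 of 13003 lower on log2(TPM + 1). On log2(TPM + 0.1), 17.4% were higher and 1055 of 13003 lower. Unpaired, DESeq2 called 519 genes (2 members higher, where 1.65% of all tested genes were) and edgeR with no filter 39. With libraries or pairs left out, calls ranged from 0 to 3109, members called higher from 0 to 16 and members called lower from 0 to 1. The share of all tested genes called higher ranged from 0% to 11.9% over these fits. The cause of these ranges was not tested. ACSS2 itself had -1.31 with the replicate block, -1.33 with it and either DESeq2 size factors or no filter, -1.22 in limma on log2(TPM + 1), -1.27 on log2(TPM + 0.1), -1.38 in DESeq2 with the replicate block (not called, adjusted p = 0.124), and -1.80 to -0.56 with libraries left out.

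CTSA, CTSB, CTSD, CTSL, GALNS, SCARB2 and GM2A were called in all 9 settings with the replicate block. CTSF, GLB1, HEXA, IDUA, ARSA, TPP1 and PSAP were lost only without replicate number 2, and CTSC, MAN2B1 and ARSB in 6, 5 and 5 of 9. Over 872 values of the 38 genes under other settings, 32 reversed in sign. Among the 17 members called with the block, ARSB was the one that did, in an unpaired fit. GLA turned to 0.05 in limma (0.0488 on log2(TPM + 1) and 0.0504 on log2(TPM + 0.1), with or without the block), and GPNMB to -0.0907 in DESeq2 with the block and -0.0285 in limma on log2(TPM + 0.1). With libraries left out the log2 fold change ran from -0.0235 to 0.72 for CTSK, -0.52 to 0.0483 for CTSO, -0.24 to 0.11 for GLA, -0.14 to 0.25 for NEU1, -0.53 to 0.0146 for MANBA, -0.0318 to 0.26 for NAGLU, -0.0808 to 1.08 for ARSB, -0.0897 to 0.35 for ASAH1, -0.55 to 0.22 for CD68, -0.14 to 0.80 for MCOLN1, -1.16 to 0.68 for GPNMB and -1.43 to 0.0075 for CLN6. GPNMB failed the low-count filter without replicate 1.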
